A study of Homo sapiens with 21 samples.

Results

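The comparison described here set the effect of overexpressing the enhancer RNA labelled 34kn against the effect of overexpressing the enhancer RNA labelled 34kp in K562 cells, an established human erythroleukaemia line. It drew on all 12 libraries with exon-bin counts, of 21 libraries in the series, in 4 groups of 3. The quantity tested for each gene was the log2 fold change of 34kn overexpression over its own controls minus that of 34kp overexpression over its own controls, called the interaction below. A positive interaction means that the 34kn change was the higher one, and a negative interaction that the 34kp change was. The groups were cells carrying 34kn, their 34kn controls, cells carrying 34kp and their 34kp controls. All were K562 cells in medium with 10% fetal bovine serum, and TruSeq libraries were made from 1 µg of RNA. The labels do not say what the controls carried, how the enhancer RNAs were expressed, when cells were harvested, or whether replicates were separate cultures or clones. P-values therefore measure the spread between these libraries, which may be technical.

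Enhancer RNAs are transcripts made by RNA polymerase II at active enhancers, often in both directions from one site. They have been described as acting near their own enhancer, and an RNA supplied from elsewhere can in principle also reach other genes. The enhancer studied lies 34 kb upstream of MYB, whose product c-Myb keeps blood progenitors dividing. K562 cells carry the BCR-ABL1 kinase, which drives STAT5 signalling, and they express fetal and embryonic globins. The design text asks how the 2 RNAs act on exon usage. The level of the enhancer RNAs themselves was not analysed here.

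Each library held between 36563252 and 41243796 bin counts. The first principal component held 39.8% of the variance and separated the experiments. On the second, with 11.7%, 34kn control replicate 1 (39.4) and 34kp replicate 1 (34.2) stood apart, followed by 34kn control replicate 3 (11.7) and 34kp replicate 2 (10.4). The gap between experiments cancels in the interaction only where it is shared by control and overexpression libraries. Reads of low alignment quality made up 4.46% to 4.64% of counted items with 34kp overexpression and 7.14% to 10.5% in the other 9 libraries. The part of the low-quality share in the results was not tested. As a check of the cell type, HBG1 and HBG2, which share a joined name, were at 5994 to 10804 CPM, counts scaled to library size. KRT5, LUM, MS4A1, ELANE and CDH5, markers of other cells, were at 0 in every library. EPCAM, an epithelial marker, was at 67.3 to 93.7 CPM in all 12 libraries.

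**Figure D1:**
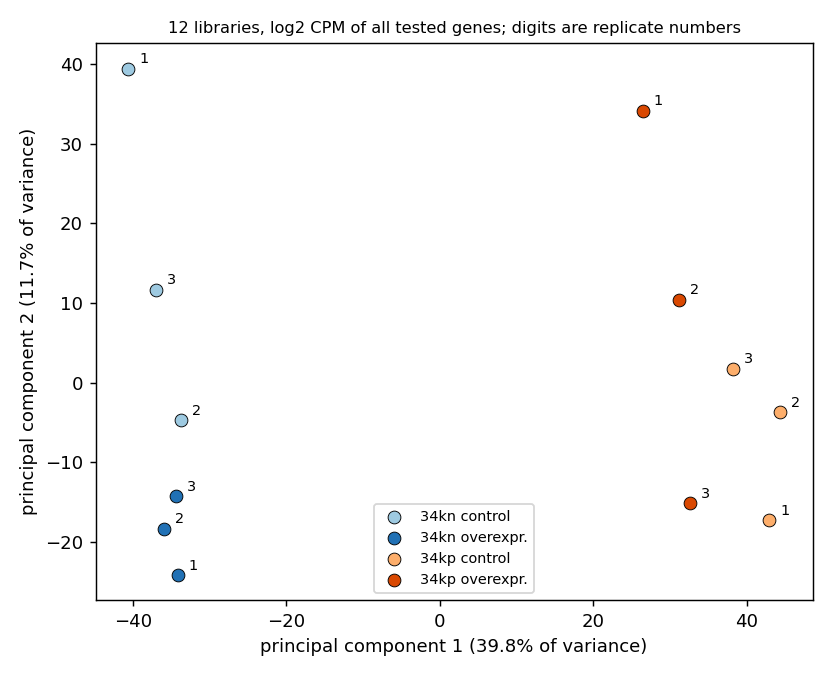
Principal components 1 (39.8% of variance) and 2 (11.7%) of log2 CPM over all tested genes, with each point a library numbered by replicate. The first axis splits the experiments, and 34kn control replicate 1 and 34kp replicate 1 lie highest on the second.

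Of 17323 genes tested, 1102 passed the interaction test (edgeR's quasi-likelihood test, Benjamini-Hochberg adjusted p below 0.05), which is 6.36% of those tested. Of these, 491 (2.83%) were positive and 611 (3.53%) negative. Against its own controls, 34kp overexpression changed 817 genes (4.72%), of which 342 rose (1.97%) and 475 fell (2.74%), and 34kn overexpression changed 0 genes in the same edgeR fit (3406 had an unadjusted p below 0.05). DESeq2 called 511 genes in the 34kn arm. The count of 817 was 349, 234 and 523 without replicate 1, 2 or 3 of the 34kp controls and 304 without 34kp replicate 2. Among the 1102 genes, 502 also passed in the 34kp arm, which is 45.6% of the interaction calls and 61.4% of the 34kp calls. The 2 arms had opposite signs in 1058 of the 1102 genes, and the 34kp arm was the larger in 700. Over all 17323 tested genes these counts were 9812 and 8207. Selecting genes by a large difference between the arms favours opposite signs, so the counts for called genes are a description. Medians for the positive genes were a log2 change of −0.46 in the 34kp arm and 0.23 in the 34kn arm, and for the negative genes 0.31 and −0.30.

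Leaving out single libraries moved the count of 1102 to between 380 (without 34kp control replicate 2) and 2747 (without 34kp replicate 3). It was 404, 449 and 528 without replicate 1, 2 or 3 of 34kn, 417 without 34kp control replicate 1, 482 without 34kp replicate 2, 603 without 34kn control replicate 3 and 1867 without 34kn control replicate 2. It was 603 without 34kn control replicate 1, 638 without 34kp replicate 1 and 666 without both, of which 577 were among the 1102. Over all 12 fits without a single library, 318 genes passed each time. All 1102 kept their sign, compared with 12724 of all 17323 tested genes. The controls of the experiments also differed: in 405 of the 491 positive genes the 34kp control mean lay above the 34kn control mean, and in 61 of the 611 negative genes, compared with 8872 of all 17323. Those control values enter the interaction itself, so these counts are a description. Median GC content was 43.9% in positive genes, 59.7% in negative genes and 48.5% in all tested genes with a value, and its part in the result was not tested.

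**Figure D2:**
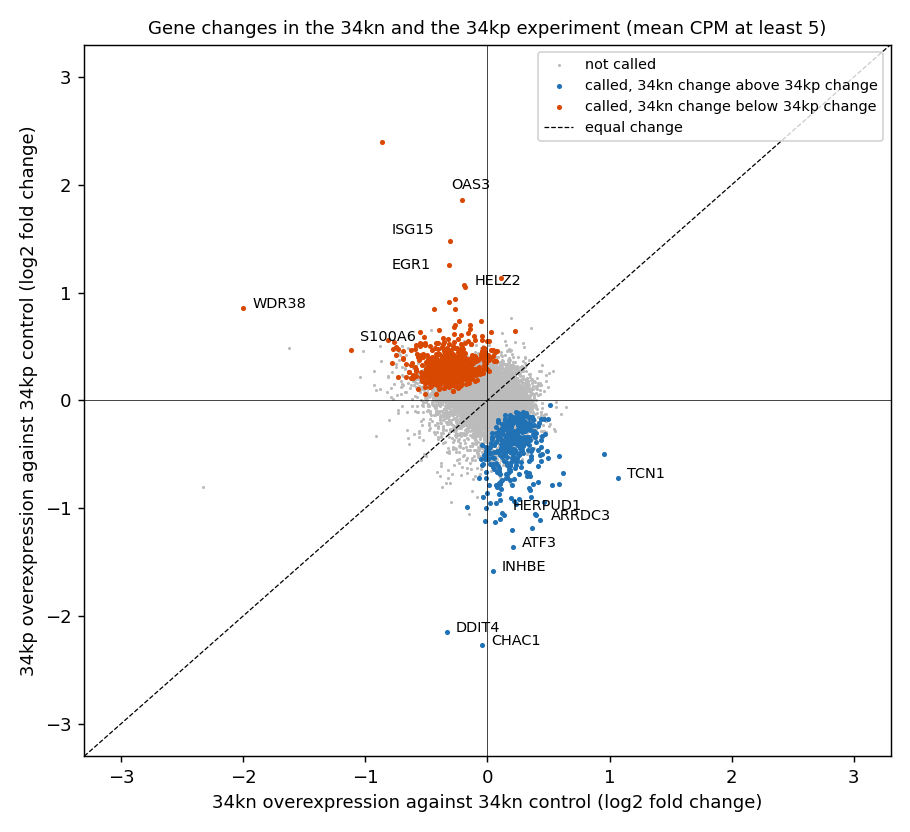
Each point is a gene with a mean of at least 5 CPM, with the log2 fold change of 34kn overexpression on the horizontal axis and of 34kp overexpression on the vertical axis, and the dashed line marking equal change. Called genes lie off the line, with CHAC1 (−2.27 in the 34kp arm, −0.04 in the 34kn arm) lowest and OAS3 (1.86 and −0.21) among the highest.

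The largest positive interactions included genes of the integrated stress response, in which the transcription factor ATF4 induces genes for amino acid supply and redox balance. Of 31 tested ATF4 and amino acid stress genes, 17 were positive and 0 negative, with a median interaction of 0.48 against 0.02 over all tested genes. In the 34kp arm 14 of the 31 fell and 1 rose. Without 34kn control replicate 1 and 34kp replicate 1, 15 were positive. Over all tested genes 2.83% were positive and 3.53% negative, and in the 34kp arm 2.74% fell and 1.97% rose. The list counts here and below are to be read beside these shares. CHAC1, which degrades glutathione, lies at chromosome 15, 40952962 to 40956519, plus strand in GENCODE 29. CHAC1 stood at 62.7, 49.3 and 58.4 CPM in the 34kn controls and 53.4, 56.5 and 55.8 with 34kn overexpression, and at 13.04, 14.9 and 16.04 in the 34kp controls and 4.24, 1.94 and 2.95 with 34kp overexpression. The 34kn libraries overlapped with their controls, whereas every 34kp library lay below every 34kp control. Its interaction was 2.23 (SE 0.24, adjusted p = 0.000191).

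The CHAC1 promoter held the only match to the ATF4 element among the promoters of 13 called genes of this list found in RefSeq. The search used TGATGNAA on both strands of the 250 bases before the start, and 3.14% of 35116 RefSeq promoters (build GRCh38.p14) hold it. Among the promoters of tested genes 1.51% of 9619 hold it, as do 2 of the 26 found for tested members of the list. In the 100 bases printed, on the plus strand of chr15:40953221-40953320, capitals mark the match, which is on the minus strand.
CHAC1: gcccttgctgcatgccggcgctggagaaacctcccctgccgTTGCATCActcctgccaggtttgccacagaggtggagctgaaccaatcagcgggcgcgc

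DDIT4, an inhibitor of mTORC1 that is induced by stress and hypoxia, stood at 971, 658 and 774 CPM in the 34kn controls and 617, 625 and 671 with 34kn overexpression, and at 343, 411 and 376 in the 34kp controls and 106, 81.2 and 67.7 with 34kp overexpression (chromosome 10, 72273920 to 72276036, plus strand). The 34kp libraries were again the low ones, with no overlap with their controls, and 34kn control replicate 1 was the highest library. The interaction of DDIT4 was 1.82 (SE 0.20, adjusted p = 0.000191), and its 34kp change was −2.15. ATF3, a stress-induced transcription factor (chromosome 1, 212565334 to 212620777, plus strand), stood at 62.5, 71.4 and 71.9 CPM in the 34kn controls and 75.8, 78.6 and 83.7 with 34kn overexpression, and at 29.3, 37.6 and 37.6 in the 34kp controls and 14.1, 13.2 and 13.2 with 34kp overexpression. Here 34kn overexpression lay above its controls in all 3 libraries with a change of 0.21 that did not pass (adjusted p = 0.244), and 34kp overexpression fell by 1.36 on the log2 scale. INHBE, an activin subunit, had an interaction of 1.63 (SE 0.22, adjusted p = 0.000705) and fell from 6.68 ± 1.18 CPM to 2.22 ± 0.364 CPM (mean ± SD, n = 3, as for all such values below). SESN2, a leucine sensor upstream of mTORC1, had one of 0.84 and CTH, which makes cysteine, one of 0.90. SLC7A11, which imports cystine, fell from 43.1 ± 2.75 CPM to 25.9 ± 3.84 CPM and stood at 59.1 ± 7.95 CPM and 64.3 ± 2.29 CPM in the 34kn experiment. DDIT3 and ASNS carry joined names that merge overlapping genes, so their values of 1.09 and 0.83 are uncertain.

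Aminoacyl-tRNA synthetases, which charge tRNAs and include ATF4 targets, gave 5 positive and 1 negative genes of 17 tested (4 and 1 without those 2 libraries). WARS1 (0.41), GARS1 (0.38) and CARS1 (0.38) were positive. VARS1 was negative at −0.40, and it was called in 7 of the 12 leave-one-out fits, as was CARS1. In the unfolded protein response list, 2 genes were positive and 3 negative of 25 (2 and 1 without those 2 libraries). HERPUD1, which serves degradation of endoplasmic reticulum proteins, stood at 87.4, 93.7 and 89.8 CPM in the 34kn controls and 97.3, 97.5 and 100.02 with 34kn overexpression, and at 84.2, 79.9 and 77.4 in the 34kp controls and 41.7, 37.3 and 37.9 with 34kp overexpression. All 3 of its 34kp libraries were lower than all other libraries, and the interaction was 1.17 (SE 0.10, adjusted p = 1.56e-05). HSPA5, the chaperone BiP, had 0.78, and SDF2L1, another chaperone of that compartment, had −0.73.

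**Figure D3:**
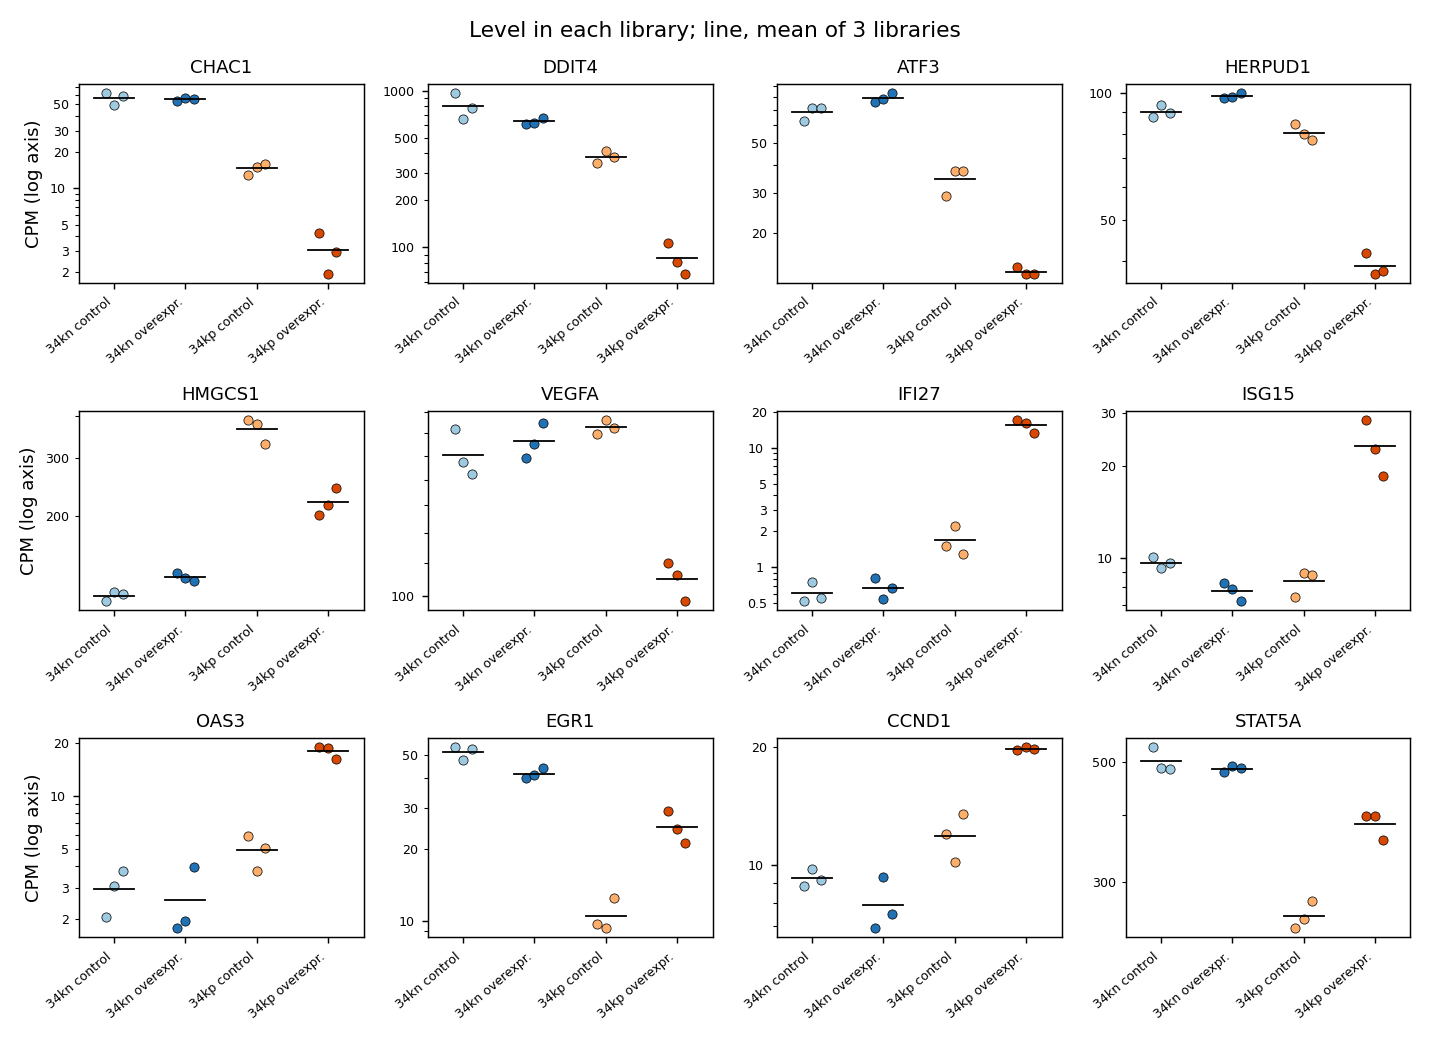
TMM-scaled CPM of 12 genes on log axes, with 1 point per library and a line at the mean of 3. CHAC1, DDIT4, ATF3, HERPUD1, HMGCS1 and VEGFA are lower with 34kp overexpression than in its controls, and IFI27, ISG15, OAS3, EGR1, CCND1 and STAT5A are higher, with no overlap, while the 34kn groups lie closer together.

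Genes of cholesterol and fatty acid synthesis, many of which SREBP factors induce when sterols are low, gave 9 positive and 0 negative of 32 tested (8 and 0 without the 2 libraries). The median of the list was 0.02, the same as over all tested genes. In the 34kp arm 10 fell and 0 rose. HMGCS1, which makes the precursor of mevalonate, stood at 111, 119 and 117 CPM in the 34kn controls and 135, 131 and 128 with 34kn overexpression, and at 391, 379.9 and 331 in the 34kp controls and 202, 217 and 243 with 34kp overexpression. The 34kp controls were the highest libraries and the 34kp overexpression libraries still lay above all 6 libraries of the 34kn experiment. Its interaction was 0.92 (SE 0.11, adjusted p = 0.00031). MSMO1, a demethylase of the same pathway, had 1.19 and INSIG1, the sterol-regulated brake on SREBP, 0.86.

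In the glycolysis and hypoxia list, 12 of 32 genes were positive and 0 negative (10 and 0 without the 2 libraries), with a median of 0.21. Of the 32, 11 fell and 0 rose in the 34kp arm. P4HA1, a collagen prolyl hydroxylase subunit, stood at 28.3, 28.98 and 32.4 CPM in the 34kn controls and 31.8, 29.9 and 34.5 with 34kn overexpression, and at 51.7, 54.9 and 53.1 in the 34kp controls and 24.3, 23.1 and 26.9 with 34kp overexpression. The P4HA1 groups of the 34kn experiment overlapped, and the 34kp groups did not. Its interaction was 1.20 (SE 0.13, adjusted p = 0.000151). PDK1, which restrains pyruvate dehydrogenase, had 0.99. VEGFA, the endothelial growth factor, fell from 163 ± 3.29 CPM to 105 ± 5.85 CPM and stood at 150.5 ± 10.2 CPM and 156 ± 7.97 CPM in the 34kn experiment. DDIT4 is a member of this list as well as of the ATF4 list.

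Other leading positive genes varied in how far their controls matched. ARRDC3, an arrestin-domain adaptor for receptor trafficking, stood at 21.03, 24.003 and 21.5 CPM in the 34kn controls and 27.8, 30.03 and 32.2 with 34kn overexpression, and at 37.1, 37.2 and 37.3 in the 34kp controls and 14.9, 17.7 and 19.2 with 34kp overexpression. The 3 libraries with 34kn were above their controls and the 3 with 34kp below theirs, with an interaction of 1.55 (SE 0.14, adjusted p = 3.19e-05). CYP3A5 (1.55), PRSS8 (1.45), HEPACAM2 (1.36) and the noncoding RNA LINC01608 (1.25) shared the fall with 34kp overexpression. CD24, a surface glycoprotein, was at 1.11 ± 0.193 CPM in the 34kn controls and 31.1 ± 4.15 CPM in the 34kp controls, so its interaction of 1.46 compares changes from very different levels. TCN1 was at 0.418 ± 0.283 CPM and 17.01 ± 0.647 CPM in the respective controls, and its interaction of 1.79 passed in 6 of the 12 leave-one-out fits. RPSAP47, a processed pseudogene whose reads may come from its parent gene, had 1.45 and passed in 2 of the 12. CCNG2, an atypical cyclin of resting cells, had 1.48 and TNFRSF10B, a TRAIL receptor, 0.84.

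Interferon-stimulated genes were among those with the largest negative interactions. These genes answer type I interferon through STAT2 and IRF9, and many block viral replication. Of 29 tested, 8 were negative and 0 positive, with or without the 2 libraries, and the list median was −0.64. In the 34kp arm 15 of the 29 rose and 0 fell. IFI27, a mitochondrial interferon-induced protein (chromosome 14, 94104836 to 94116698, plus strand), stood at 0.519, 0.744 and 0.556 CPM in the 34kn controls and 0.808, 0.541 and 0.671 with 34kn overexpression, and at 1.49, 2.23 and 1.30 in the 34kp controls and 17.2, 16.1 and 13.2 with 34kp overexpression. The 3 libraries with 34kp lay above all 9 others, and the interaction was −3.07 (SE 0.35, adjusted p = 0.000233). ISG15, a ubiquitin-like modifier (chromosome 1, 1001138 to 1014540, plus strand), stood at 10.1, 9.24 and 9.58 CPM in the 34kn controls and 8.24, 7.89 and 7.20 with 34kn overexpression, and at 7.40, 8.92 and 8.81 in the 34kp controls and 28.5, 22.9 and 18.7 with 34kp overexpression. Its 34kp libraries were above all 9 others, with an interaction of −1.79 (SE 0.20, adjusted p = 0.000191). OAS3, which makes the activator of RNase L on double-stranded RNA (chromosome 12, 112938352 to 112973249, plus strand), stood at 2.07, 3.11 and 3.78 CPM in the 34kn controls and 1.78, 1.96 and 3.97 with 34kn overexpression, and at 5.95, 3.76 and 5.05 in the 34kp controls and 18.9, 18.7 and 16.2 with 34kp overexpression. Again no 34kp library overlapped with another group, and the interaction was −2.07 (SE 0.37, adjusted p = 0.00614).

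The interferon-stimulated response element was searched as GAAA, any 2 bases and GAAA again on both strands of the same windows of 250 bases before the start. It was found in 13 of the 25 tested interferon genes with a RefSeq promoter and in 4 of the 6 called ones, and 3.02% of all 35116 promoters and 2.29% of the 9619 of tested genes hold it. The 4 called promoters are shown because their genes carry the negative interactions, each 5′ to 3′ on the strand of its gene with matches in capitals. They lie at chr14:94110583-94110682 (IFI27, plus strand), chr12:112938286-112938385 (OAS3, plus), chr1:1013339-1013438 (ISG15, plus) and chr11:320861-320960 (IFITM3, minus).
IFI27: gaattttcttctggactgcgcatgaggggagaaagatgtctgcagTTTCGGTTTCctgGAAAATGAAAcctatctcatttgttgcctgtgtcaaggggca
OAS3: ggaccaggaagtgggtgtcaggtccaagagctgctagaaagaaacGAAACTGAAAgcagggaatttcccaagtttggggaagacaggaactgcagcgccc
ISG15: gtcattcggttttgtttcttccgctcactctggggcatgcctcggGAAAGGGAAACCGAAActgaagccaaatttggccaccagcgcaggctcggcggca
IFITM3: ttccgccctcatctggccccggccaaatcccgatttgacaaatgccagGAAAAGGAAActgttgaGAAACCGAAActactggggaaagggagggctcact

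Each of the 4 windows of 250 bases held 2 matches, those of ISG15 overlapping, and one of the matches of OAS3 lies outside the bases printed. IFITM3, which blocks entry of viruses at endosomes, rose from 65.4 ± 2.99 CPM to 95.8 ± 7.07 CPM, with an interaction of −0.71. PARP9, a partner in interferon signalling, had −1.03, HELZ2, an interferon-induced helicase, −1.26, and IRF7, the regulator of interferon genes, −1.23. MX1, chosen here after its values were seen, averaged 2.68 CPM with 34kp overexpression and 0.0636 CPM in its controls, and was at 0 in all 3 libraries with 34kn overexpression, so no fold is given. IFI6 shares a joined name and is uncertain, with −3.26. Genes of MHC class I antigen presentation, which interferon also induces, gave 0 calls of 15 tested with edgeR, 3 at an unadjusted p below 0.05 and 0 with DESeq2.

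Immediate early genes, the first to answer growth factor signalling, split by gene. Of 23 tested, 1 was positive (ATF3, above) and 7 were negative (1 and 5 without the 2 libraries). EGR1, a zinc finger factor downstream of ERK (chromosome 5, 138465490 to 138469315, plus strand), stood at 54.2, 47.96 and 53.4 CPM in the 34kn controls and 39.99, 41.4 and 43.996 with 34kn overexpression, and at 9.65, 9.28 and 12.5 in the 34kp controls and 29.1, 24.4 and 21.3 with 34kp overexpression. With 34kn its change was −0.31 (adjusted p = 0.188) and with 34kp it rose by 1.25. All 34kp overexpression libraries lay above their controls and below all libraries of the 34kn experiment. Its interaction was −1.56 (SE 0.17, adjusted p = 0.000191). IER2 had −0.78 and JUND, an AP-1 subunit, −0.61. Outputs of STAT5 and cytokine signalling gave 5 negative and 0 positive of 16 (4 and 0 without the 2 libraries). STAT5A itself stood at 533, 488 and 485 CPM in the 34kn controls and 478, 491 and 488 with 34kn overexpression, and at 247, 256 and 278 in the 34kp controls and 398, 397 and 359 with 34kp overexpression, with an interaction of −0.61 (SE 0.09, adjusted p = 0.00174). Only its 34kp groups stood apart from each other. ID1, an inhibitor of differentiation factors, had −0.80 and the survival kinase PIM2 −0.43.

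The MYB locus had 0 calls of 4 tested genes with edgeR, 0 at an unadjusted p below 0.05 and 0 with DESeq2. MYB (chromosome 6, 135181315 to 135219173, plus strand) stood at 162, 202 and 189.8 CPM in the 34kn controls and 209, 211 and 205 with 34kn overexpression, and at 206, 199 and 202 in the 34kp controls and 193, 215 and 231 with 34kp overexpression. The 34kp groups overlapped, every 34kn overexpression library lay above every 34kn control, and the interaction was 0.10 (SE 0.11, adjusted p = 0.619). HBS1L, on the other side of the enhancer, had 0.18 (SE 0.10, adjusted p = 0.3) and AHI1, downstream of MYB, 0.07 (SE 0.17, adjusted p = 0.837). MYB-AS1, antisense within MYB and not separable from it without a stated strand setting, had 0.22 (adjusted p = 0.542). Of 20 tested genes of the MYB family and reported MYB targets, 2 were positive and 4 negative (1 and 4 without the 2 libraries). HSPA5, named above, is a member of this list and had its smallest unadjusted p, with a positive interaction of 0.78. CCND1, cyclin D1, rose from 11.9 ± 1.64 CPM to 19.8 ± 0.196 CPM, with an interaction of −0.97. MAT2A, which makes S-adenosylmethionine, had −0.45.

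Erythroid genes held calls of both signs. Of 17 erythroid transcription factors, 4 were negative and 0 positive, with and without the 2 libraries: ZBTB7A, a repressor of fetal globin (−0.70), LMO2, the bridge of the GATA1-TAL1 complex (−0.57), LYL1 (−0.54) and E2F4 (−0.42). Of 20 red cell membrane genes, 6 were positive and 0 negative (5 and 0 without the 2 libraries), and 6 fell in the 34kp arm. GYPB, a glycophorin, stood at 81.2, 92.98 and 83.4 CPM in the 34kn controls and 107, 108 and 96.7 with 34kn overexpression, and at 108, 99.1 and 91.7 in the 34kp controls and 62.5, 71.7 and 80.3 with 34kp overexpression, with an interaction of 0.75 (SE 0.13, adjusted p = 0.0056). The 34kn libraries lay above their controls and the 34kp libraries below theirs. XK (0.71), RHD (0.66) and GYPE (0.68), which encode blood group proteins or a relative of them, were also positive. GYPB and GYPE belong to a family of close copies, and reads can be split between them.

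Haem synthesis gave 2 positive of 17 (11.8%), compared with 2.83% positive over all tested genes. ALAS2, the erythroid enzyme that starts the pathway, fell from 139.7 ± 3.92 CPM to 91.7 ± 5.83 CPM and stood at 126 ± 6.34 CPM and 144 ± 4.01 CPM in the 34kn experiment, with an interaction of 0.80 (SE 0.09, adjusted p = 0.00031). Iron handling gave 2 positive and 1 negative of 16 (2 and 0 without the 2 libraries). NCOA4, the ferritin receptor of autophagy (0.53), and SLC25A37, the mitochondrial iron importer (0.37), were positive, and PCBP1, an iron chaperone and RNA-binding protein (−0.40), was negative and passed in 3 of 12 leave-one-out fits. HBA2, an alpha globin, stood at 303, 177 and 207 CPM in the 34kn controls and 138, 137 and 139 with 34kn overexpression, and at 86.9, 82.1 and 97.3 in the 34kp controls and 118, 102 and 88.5 with 34kp overexpression. The highest library was 34kn control replicate 1, and the 34kp groups overlapped. Its interaction was −0.94 (adjusted p = 0.0173), and the near-identical HBA1 had 0.26 (adjusted p = 0.624), so reads of the pair are uncertain. Among 11 megakaryocytic genes 2 were negative, ITGA2B (−0.74) and GATA2 (−0.73), and 0 without the 2 libraries.

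**Figure D4:**
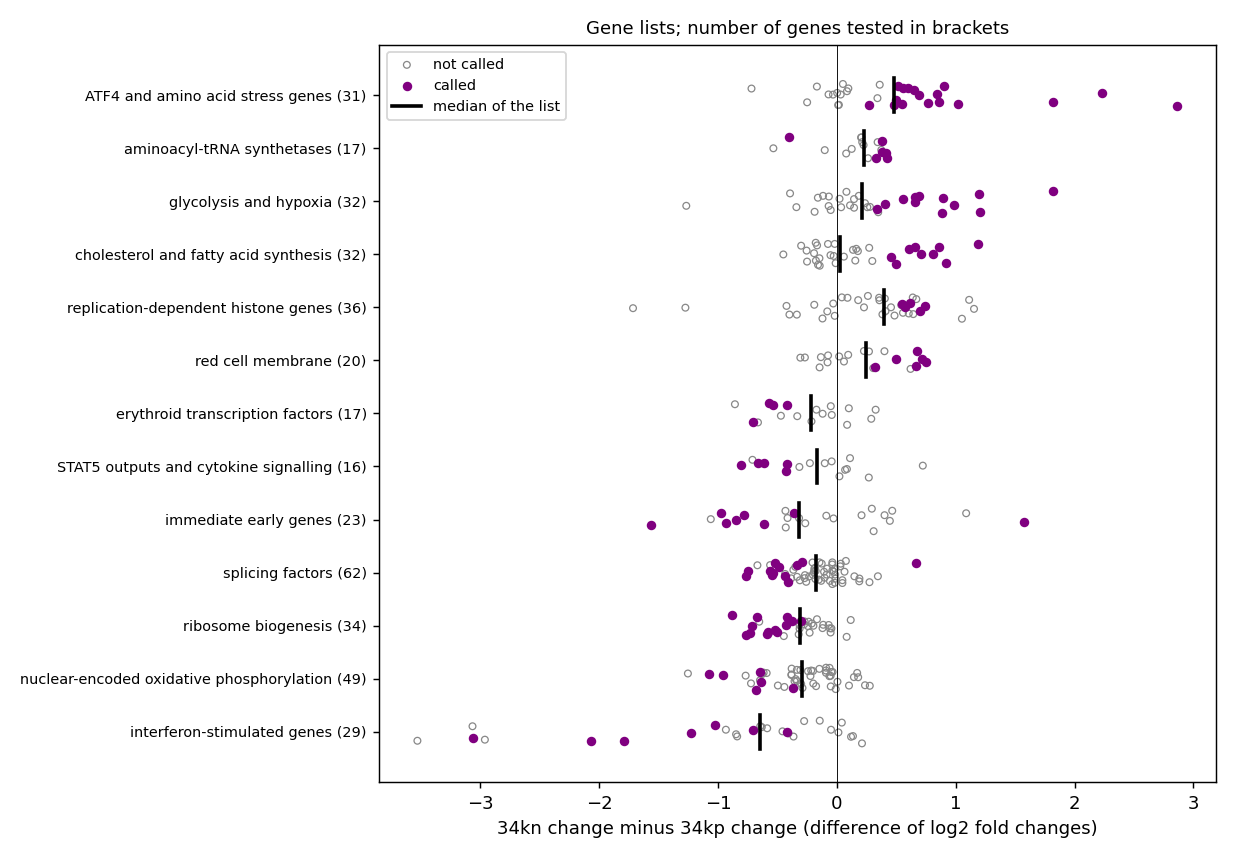
Interaction of each tested member of 13 lists, with called genes filled, a bar at the list median and the number tested in brackets. MX1 and other genes with a group at 0 are not drawn. ATF4 genes (median 0.48) lie to the right and interferon-stimulated genes (median −0.64) to the left.

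Genes of ribosome assembly and RNA processing were negative in nearly all of their calls. Of 34 ribosome biogenesis genes, 13 were negative and 0 positive (12 and 0 without the 2 libraries), with a median of −0.31, and 13 rose in the 34kp arm. NOP16, a nucleolar protein, stood at 111, 101 and 109 CPM in the 34kn controls and 78.7, 84.03 and 88.9 with 34kn overexpression, and at 73.7, 76.8 and 88.6 in the 34kp controls and 124, 98.7 and 96.7 with 34kp overexpression, with an interaction of −0.77 (SE 0.14, adjusted p = 0.00614). The 34kn libraries were below their controls and the 34kp libraries above theirs. NOP10 (−0.73), a subunit of H/ACA particles, RRP12 (−0.58) and BYSL (−0.67), factors of small subunit assembly, followed. Of 62 splicing factors, 1 was positive and 11 negative (0 and 12 without the 2 libraries). SRSF7 (−0.52) and SRSF3 (−0.44), serine-arginine proteins, differed mainly in the 34kp arm, with changes of 0.48 and 0.46 against −0.04 and 0.03 in the 34kn arm. HNRNPA0 had −0.76 and LUC7L −0.54. Cytosolic ribosomal proteins gave 4 negative of 44 and oxidative phosphorylation subunits 6 negative of 49 (3 and 4 without the 2 libraries), with 0 positive in both. These were 9.09% and 12.2% of those tested, compared with 3.53% negative over all tested genes.

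RPL41, a ribosomal protein, stood at 619, 415 and 518 CPM in the 34kn controls and 337, 317 and 341 with 34kn overexpression, and at 281, 286 and 291 in the 34kp controls and 397, 337 and 293 with 34kp overexpression, with an interaction of −0.90 (SE 0.17, adjusted p = 0.00748). The 34kn arm was −0.64 (adjusted p = 0.152), and 34kn control replicate 1 was the highest library. ATP5F1D, of ATP synthase, had −0.65, and the mitochondrially encoded MT-ND3 had −0.67. Heat shock chaperones gave 5 negative of 23 (3 without the 2 libraries), with HSPA1A, which has a near-identical copy, at −1.0 and DNAJB1 at −0.63. Mitosis genes gave 4 positive of 40 (3 without the 2 libraries), which is 10%, compared with 2.83% positive over all tested genes. Among the 4 were the checkpoint kinase BUB1 (0.49), the phosphatase CDC25C (0.60) and the spindle protein HMMR (0.75). Replication-dependent histone genes gave 5 positive of 36 (3 without the 2 libraries), including H2AC13 (0.70) and H3C10 (0.55). NRF2 genes gave 4 positive and 1 negative of 27 (4 and 0 without the 2 libraries). The 4 positive genes were SLC7A11 (0.86), named above, and the aldo-keto reductases AKR1C1 (0.52), AKR1C2 (0.56) and AKR1C3 (0.70). As close copies the reductases can share reads.

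Further negative genes were led by WDR38, which stood at 22.5, 3.16 and 6.67 CPM in the 34kn controls and 2.81, 2.55 and 2.74 with 34kn overexpression, and at 2.35, 2.42 and 2.80 in the 34kp controls and 6.83, 3.55 and 3.31 with 34kp overexpression. Its high library was 34kn control replicate 1, and the interaction of −2.85 was −1.72 without it (adjusted p = 0.0366) and passed in 4 of the 12 leave-one-out fits. S100A6, a calcium-binding protein, had −1.58 and passed in 9. Without both libraries that stood apart, WDR38 was at −1.31, S100A6 at −1.003, STARD7-AS1 at −0.79, SDF2L1 at −0.46, HBA2 at −0.58 and ATP5F1D at −0.42, all still called, and GATA2 at −0.48 was not. F2RL3, the thrombin receptor PAR4, rose from 8.39 ± 1.38 CPM to 15.1 ± 1.94 CPM, with an interaction of −1.29 (SE 0.18, adjusted p = 0.00118). CCDC78 (−1.30), CTU1, a tRNA thiolation enzyme (−1.24), NOXO1, an organiser of NADPH oxidase (−1.23), and STARD7-AS1 (−1.21) completed the 12. The cytoskeletal list gave 2 positive and 3 negative of 30 (2 and 4 without the 2 libraries). In it VIM, vimentin, had 0.50 and KRT10, a keratin, −0.78. FN1, fibronectin, fell from 40.1 ± 3.45 CPM to 22.5 ± 2.67 CPM, with 1.19. The 5 fibroblast markers summed to between 24.7 and 36.1 CPM in the 34kn experiment and between 34.1 and 41.5 CPM in the 34kp experiment, with LUM at 0. Within the sum, COL1A1 was at 1.55 to 3.29 CPM in the 34kn experiment and 13.1 to 24.5 CPM in the 34kp experiment. COL1A2 was at 22.5 to 32.6 CPM and 15.3 to 24.0 CPM, respectively.

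Exon usage was compared by asking whether a bin, a non-overlapping piece of a gene's exons, moved differently from its gene between the experiments. Over 235683 bins of 12082 genes, 360 genes passed (edgeR's diffSpliceDGE with Simes' method), which is 2.98% of those tested. Of the 730 bins called, 693 had a negative interaction and 37 a positive one. In 228 of the 360 genes a single bin was called. Of the 360, 39 were also called at gene level, which is 10.8% of them, compared with 8.21% of all genes tested for exon usage. Without 34kn control replicate 1 and 34kp replicate 1 together, 13 genes passed, of which 7 were among the 360. Without the first alone it was 36 and without the second alone 34, whereas without 34kn control replicate 2 it was 1078 and without 34kp replicate 3 it was 1262. It was 165, 136 and 231 without replicate 1, 2 or 3 of 34kn, 119 and 204 without replicate 1 or 2 of the 34kp controls, and 217 without 34kp replicate 2.

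The 6 genes with the smallest p show this directly. Bin 4 of AGAP3, a GTPase-activating protein, took 1.88%, 0.490% and 0.554% of the gene's counts in the 34kn controls and 0.103%, 0.0959% and 0.0817% with 34kn overexpression. In the 34kp controls it took 0.121%, 0.478% and 0.602% and with 34kp overexpression 1.47%, 0.515% and 0.0899%. Replicate 1 of the 34kn controls and of the 34kp libraries held the highest shares, and the other libraries overlapped between the 34kp groups. Bin 5 of TRIM28, a corepressor of retroelements, reached 2.40% and 1.82% in those 2 libraries and 0.382% to 1.19% elsewhere. Bin 68 of PARP1, a sensor of DNA breaks, reached 1.99% and 1.46% against 0.255% to 0.969%. Bin 3 of ATP2A2, a calcium pump, reached 1.35% and 0.439% against 0.00628% to 0.366%. Bin 74 of USP7, a deubiquitinase, reached 1.31% and 0.829% against 0.0954% to 0.588%. Bin 31 of GSPT1, a translation release factor, reached 3.02% and 1.63% against 0.357% to 1.25%. Without both libraries none of these 6 bins passed, with adjusted p from 0.0689 (PARP1) to 0.757 (GSPT1), and all 6 kept a negative sign.

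**Figure D5:**
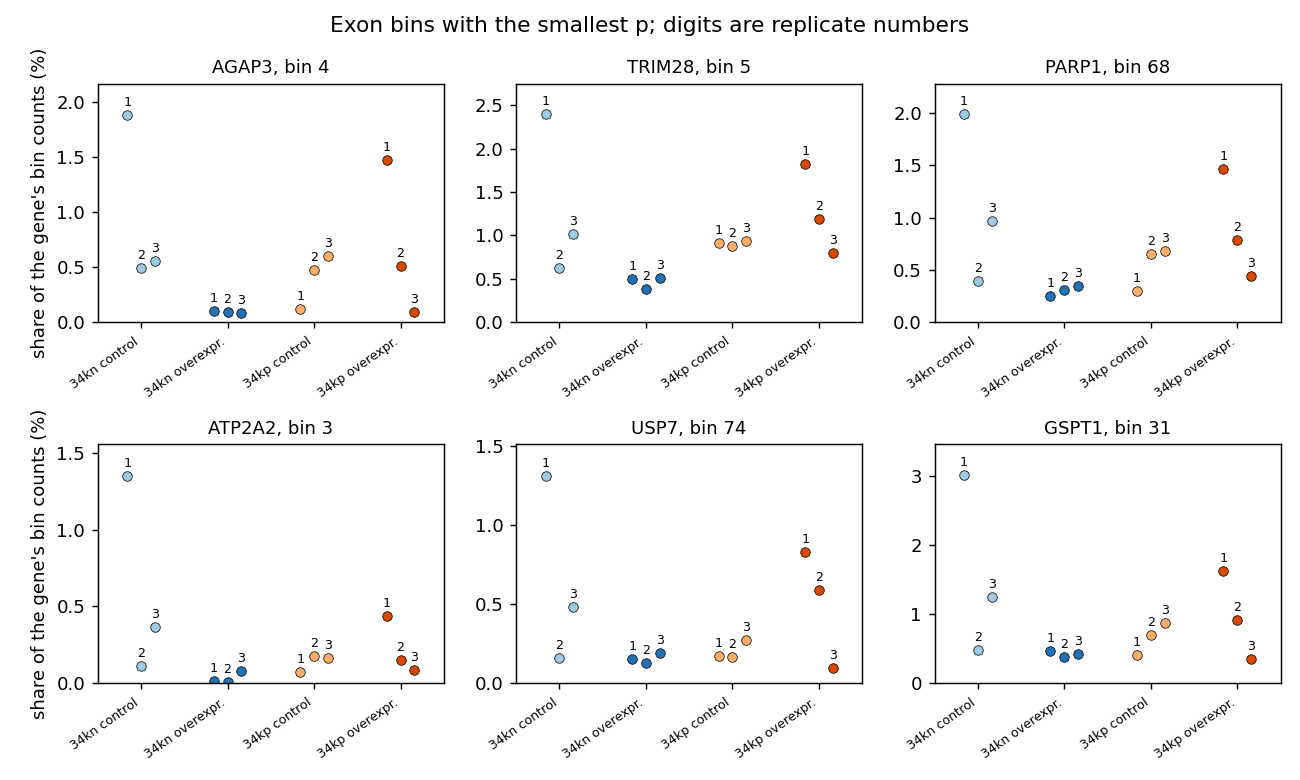
Share of a gene's bin counts held by its leading bin, in percent, for the 6 genes with the smallest p, with 1 point per library numbered by replicate. The highest share is in 34kn control replicate 1 and the next in 34kp replicate 1 in all 6 panels.

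By place, 0.745% of first tested bins and 0.778% of last tested bins were called, compared with 0.258% of inner bins. Of the 42 lists, exon calls were most numerous among DNA replication genes (8 of 41), splicing factors (6 of 61) and cytosolic ribosomal proteins (6 of 44). These lists are given because their counts were the highest, and 2.98% of all genes tested were called. Lower counts included 0 of 29 ATF4 genes, 0 of 18 interferon-stimulated genes and 1 of 49 oxidative phosphorylation genes. These counts come from the fit with all 12 libraries and were not recomputed without any of them.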

How the data were processed

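RNA of K562 cells was measured by RNA-seq in 4 groups of 3 libraries. The authors deposited raw exon-bin counts, 1 file per library. Trimming used Trimmomatic 0.93 and alignment STAR 2.7.10a on GRCh38, per the submitters' processing notes. The counting tool, annotation release and strand setting are not given in the sources used here. Of 57300 gene names, 2582 join overlapping genes and held 24.4% to 26.3% of counts. Summary rows that name no bin were left out. Reads outside bins were 29.5% to 32.8%, low-quality reads 4.46% to 10.5% and ambiguous reads 0.0155% to 0.0225% of counted items.

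Bin counts were summed per gene, so a read spanning several bins counts in each. The gene test was that of edgeR 4.0.16, run in R 4.3.3 (TMM, filterByExpr with a minimum count of 10, robust quasi-likelihood F test, two-sided) over all 12 libraries, and bins with diffSpliceDGE. Adjusted p-values are Benjamini-Hochberg values over all genes tested, with a threshold of 0.05. DEXSeq, named in the design text, was not used. Changes are on the log2 scale. SE was derived from the test, as the absolute log2 change divided by the square root of the quasi-likelihood F statistic. Levels are TMM-scaled CPM, as mean ± SD with n = 3. Replicates differed beyond sampling noise (chi-square per degree of freedom 4.85 to 51.9). Scripts were tested on simulated data. Coordinates are from GENCODE 29 (GRCh38) and promoters from RefSeq (GRCh38.p14).

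The groups compared and the 42 gene lists were chosen with earlier results of these data known. Named genes were single-name genes with a mean of at least 5 CPM that passed and kept their sign in all 12 leave-one-out fits (the 12 most positive and 12 most negative), up to 4 per list by smallest p, MYB, HBS1L and AHI1, and 6 exon genes. Alternatives were DESeq2 1.42.0, other scaling and filters, the highest bin per gene, joined names left out, a replicate block and each library left out. Some genes that this rule names are not reported here.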

Additional observations from a re-analysis of the deposited data

Results flagged for a closer look

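The difference between the 34kn and the 34kp effect was itself the tested quantity, so every gene named as called is a place where the experiments differed. It passed for 1102 genes, and for exon usage in 360 genes. Because each experiment has its own controls and libraries, the RNA and anything else that separates the experiments cannot be told apart.

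The named positive interactions of at least 1 on the log2 scale were CHAC1 2.23, DDIT4 1.82, TCN1 1.79, INHBE 1.63, ATF3 1.57, CYP3A5 1.55, ARRDC3 1.55, CCNG2 1.48, CD24 1.46, RPSAP47 1.45, PRSS8 1.45, HEPACAM2 1.36, LINC01608 1.25, P4HA1 1.20, MSMO1 1.19, FN1 1.19 and HERPUD1 1.17. Lower positive values were PDK1 0.99, HMGCS1 0.92, CTH 0.90, SLC7A11 0.86, INSIG1 0.86, TNFRSF10B 0.84, SESN2 0.84, ALAS2 0.80, HSPA5 0.78, HMMR 0.75, GYPB 0.75, XK 0.71, AKR1C3 0.70, H2AC13 0.70, VEGFA 0.69, GYPE 0.68, RHD 0.66, CDC25C 0.60, AKR1C2 0.56, H3C10 0.55, NCOA4 0.53, AKR1C1 0.52, VIM 0.50, BUB1 0.49, WARS1 0.41, GARS1 0.38, CARS1 0.38 and SLC25A37 0.37. On the negative side, values of −1 or below were IFI27 −3.07, WDR38 −2.85, OAS3 −2.07, ISG15 −1.79, S100A6 −1.58, EGR1 −1.56, CCDC78 −1.30, F2RL3 −1.29, HELZ2 −1.26, CTU1 −1.24, IRF7 −1.23, NOXO1 −1.23, STARD7-AS1 −1.21, PARP9 −1.03 and HSPA1A −1.0. The remaining negative values were CCND1 −0.97, HBA2 −0.94, RPL41 −0.90, ID1 −0.80, KRT10 −0.78, IER2 −0.78, NOP16 −0.77, HNRNPA0 −0.76, ITGA2B −0.74, NOP10 −0.73, SDF2L1 −0.73, GATA2 −0.73, IFITM3 −0.71, ZBTB7A −0.70, BYSL −0.67, MT-ND3 −0.67, ATP5F1D −0.65, DNAJB1 −0.63, JUND −0.61, STAT5A −0.61, RRP12 −0.58, LMO2 −0.57, LUC7L −0.54, LYL1 −0.54, SRSF7 −0.52, MAT2A −0.45, SRSF3 −0.44, PIM2 −0.43, E2F4 −0.42, VARS1 −0.40 and PCBP1 −0.40. For the leading exon bins the interaction was AGAP3 −2.96, TRIM28 −1.44, PARP1 −1.81, ATP2A2 −3.32, USP7 −2.22 and GSPT1 −1.64, all of which lost the call without 34kn control replicate 1 and 34kp replicate 1.

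Outside the bin counts, the deposited files tally ambiguous reads, which fit more than 1 gene. Their mean share was 0.0220% ± 0.000507 (SD, n = 3) with 34kp overexpression and 0.0163% ± 0.000717 in its controls, without overlap. It was 0.0158% with 34kn overexpression and 0.0164% in its controls.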

How the results depend on the processing

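Of the 91 named genes with a called interaction, all kept their direction under every alternative run. For the 12 most positive and 12 most negative, keeping it in the 12 leave-one-out fits was part of the choice. All 1102 called genes kept it in those fits. All 91 kept the call with size factors of relative log expression, DESeq2, no filter, a minimum count of 100 or joined names left out. With the highest bin of each gene 54 kept it, with the GC trend removed 85 and without the 2 outlying libraries 85. The interaction count of 1102 became 2011 with DESeq2, 2085 with no filter and 5.6e+02 with the highest bin per gene. It was 1371 with the GC trend removed, of which 774 were among the 1102. Leaving out single libraries gave 380 to 2747. The 34kn count of 0 became 511 with DESeq2 and 1110 with no filter (0 to 46 without single libraries). The 34kp count of 817 became 1293 with DESeq2, 367 with the highest bin, 392 in a fit of its 6 libraries alone, 1903 with each library's GC trend taken out, and 1221 without 34kn control replicate 1 and 34kp replicate 1 (234 to 1106 without single libraries). The exon count of 360 became 1200 with a gene-level F test, 13 without those 2 libraries and 34 to 1262 without single libraries. The GC and 2-library alternatives were added after seeing the data, and the causes were not tested.

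The labels do not say whether replicate numbers pair the samples. Deviations from group means correlated at −0.17 to 0.02 between same-numbered control and overexpression libraries. Between differently numbered ones they correlated at −0.056 to 0.16. With 3 libraries per group these correlations cannot decide whether the samples were paired. With the replicate number as a block, 105 genes passed the interaction, 207 the 34kp arm and 51 the exon test, and 39 of the 91 named genes. Uncalled genes of the MYB locus changed sign. With the GC trend removed, MYB was at −0.025, HBS1L at −0.012 and AHI1 at −0.11. Without single libraries or the 2 together, MYB ranged from −0.052 to 0.17, AHI1 from −0.13 to 0.19 and MYB-AS1 from −0.049 to 0.34. Low-count genes such as IFI27 rest on few reads in the 34kn experiment.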
